A study of Homo sapiens with 6 samples.

Results

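The 8 genes described here encode the VPS10-domain sorting receptors SORT1 (sortilin), SORL1, SORCS1, SORCS2 and SORCS3 and the neurotrophin receptors NGFR, NTRK2 and NTRK3. They were taken by symbol from the 26485 rows of a table of RNA counts, in which all 8 were found. They were selected on the log2 fold changes between the 2 groups of this table, which were already known, SORCS2 being among its strongest rises. Every difference between the groups in these 8 genes is therefore given as a description, without a test, and counts of called genes support nothing. RNA came from 6 cultures of EndoC-βH1, an established human pancreatic beta cell line made from fetal pancreas with the SV40 large T antigen and telomerase. All cultures carried the lentiviral vector lentiCRISPRv2, which delivers the Cas9 nuclease, and were antibiotic-selected stable lines. The 3 libraries named Empty (genotype label WT) carried no guide, and the 3 named sgZHX3-3 (genotype label ZHX3 KO) carried a guide against the first coding exon of ZHX3, a zinc-finger and homeobox repressor. A single guide was used, so an effect of losing ZHX3 and other effects of that guide cannot be told apart. Replicates were numbered 1 to 3 as biological in both groups, but nothing says that they were separately made lines, so the spread may be that between cultures of the same line.

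VPS10-domain receptors carry cargo between the trans-Golgi network, endosomes and the cell surface, and bind ligands such as neurotensin, progranulin and the precursors of neurotrophins. Neurotrophins are growth factors of neurons: mature forms signal through the Trk receptor kinases, of which NTRK2 binds BDNF and NTRK3 binds neurotrophin 3. NGFR binds all mature neurotrophins and, together with sortilin or SORCS2, their precursor forms. In beta cells sortilin and SORCS1 are known from granule and receptor trafficking, and SORCS1 from genetic studies of insulin secretion. RNA of ZHX3 itself was higher in the libraries labelled sgZHX3-3, at 177 ± 8.62 CPM (SD, n = 3) against 105 ± 4.19 CPM (SD, n = 3). The label was not borne out by a loss of RNA, and each direction below is drawn from the labels. Protein is not part of these data, so a loss of ZHX3 protein could not be checked. The 3′ part of ZHX3 overlaps PLCG1 on the other strand, so the ZHX3 count is itself uncertain. CPM are counts per 1000000 of a TMM-scaled library size, and the libraries held 45101454 to 61051884 counts. Of 6 beta cell markers 5 were called higher (edgeR), beside 7.11% called higher among all tested genes. INS, the insulin gene, was not called (0.19, edgeR adjusted p = 0.219). It was called higher without Empty 1 (0.30, adjusted p = 0.0155) and was 0.11 without sgZHX3-3 library 3. Of the called markers MAFA lay nearest to the threshold (edgeR adjusted p = 0.0490), with Empty 1 at 94.6 CPM and Empty 2 and 3 at 64.5 and 64.9 CPM. The sum of the 6 markers ran from 6556 to 8255 CPM in Empty and from 7820 to 9359 CPM in sgZHX3-3. Most of that sum was INS, at 5206 to 6502 CPM in Empty and 5771 to 7118 CPM in sgZHX3-3. Neuron markers summed to between 549 and 559 CPM in Empty and between 535 and 555 CPM in sgZHX3-3. SOX10, the defining factor of Schwann and neural crest cells, in which NGFR is well known, was at 0.00563 CPM in Empty and 0.0166 CPM in sgZHX3-3. Duct markers summed to between 62.7 and 72.2 CPM, stellate cell markers to between 5.54 and 8.17 CPM, alpha cell markers to between 58.7 and 76.3 CPM and delta cell markers to between 6.30 and 10.3 CPM over all libraries; of these lists only IRX2, an alpha cell marker, was called, lower. The part of any other cell type in the values below was not tested.

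The sequences just upstream of the starts are shown for SORT1, SORL1 and SORCS1, the VPS10 receptors with the most RNA in these cells. They come from RefSeq on GRCh38.p14, whose promoter table matched 6 of the 8 genes, SORCS2 and NGFR not among them. Each runs 5′ to 3′ on the gene's strand and stops before the first annotated start. Capitals mark CCAAT, the box bound by NF-Y, with which ZHX proteins interact, and GGGCGG, the GC box, each on either strand. The SORT1 bases lie at chr1:109397952-109398168 on the minus strand, those of SORL1 at chr11:121452064-121452202 on the plus strand and those of SORCS1 at chr10:107164707-107164956 on the minus strand.
SORT1: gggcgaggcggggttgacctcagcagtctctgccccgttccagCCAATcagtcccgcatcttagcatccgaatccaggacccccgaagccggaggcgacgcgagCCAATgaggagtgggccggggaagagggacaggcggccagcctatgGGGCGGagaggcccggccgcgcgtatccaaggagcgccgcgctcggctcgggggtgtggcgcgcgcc
SORL1: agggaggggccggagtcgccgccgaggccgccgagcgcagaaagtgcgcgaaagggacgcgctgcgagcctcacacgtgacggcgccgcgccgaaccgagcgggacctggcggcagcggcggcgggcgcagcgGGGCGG
SORCS1: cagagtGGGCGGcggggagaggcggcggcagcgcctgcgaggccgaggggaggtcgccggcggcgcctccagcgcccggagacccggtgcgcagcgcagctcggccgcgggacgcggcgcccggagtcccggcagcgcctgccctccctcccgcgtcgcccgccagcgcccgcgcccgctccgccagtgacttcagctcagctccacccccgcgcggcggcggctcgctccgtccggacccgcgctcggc
In the full window of 250 bases before the RefSeq start, SORT1 held 2 CCAAT matches and NTRK2, taken at the listed start nearest to the annotated one, held 1, while SORL1, SORCS1, SORCS3 and NTRK3 held 0. Over all 35116 promoters listed, 32.0% held CCAAT in this window and 42.6% held GGGCGG. The GC box was found in all 6 windows, in none of them overlapping a CCAAT match, with 3 matches in SORT1, 2 each in SORL1 and NTRK3 and 1 each in SORCS1, SORCS3 and NTRK2. GC content was 82.4% in SORCS1, 80.4% in SORL1, 74.0% in SORT1, 73.2% in NTRK3 and 66.0% in SORCS3, beside a median of 58.0% over all promoters, and NTRK2 lay below that median. The RefSeq start of NTRK2 lies 755 bases inside the annotated gene, so its whole window lies within the gene. That of SORCS3 lies 189 bases inside, and its GC box lies past the annotated start. A letter match is a description and not evidence of binding.

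Most of the family's RNA came from SORT1 and SORL1. Per kb of the longest coding transcript in GENCODE release 29, which may differ from the gene models used for counting, SORT1 lay between 43.5 and 50.3 CPM per kb in the 6 libraries, with a median of 48.4. SORL1 followed at 8.75 to 12.4 CPM per kb (median 11.0), and every library held more SORT1 than SORL1. SORCS1 lay at 0.630 to 1.22 CPM per kb (median 0.987) and SORCS2 at 0.238 to 1.13 CPM per kb (median 0.631), with overlapping ranges. NGFR (median 0.209), NTRK2 (0.183) and SORCS3 (0.137 CPM per kb) came next, and each overlapped its neighbour in this order. NTRK3 was lowest, at 0.00761 to 0.0507 CPM per kb (median 0.0306), below SORCS3 in all 6 libraries. The order of the lowest 4 depends on the length used, since the longest NTRK3 transcript measures 19984 bases: per kb of coding sequence NTRK2 (median 0.630) lay above NGFR (0.557) and NTRK3 (0.236) above SORCS3 (0.215 CPM per coding kb). Counts per gene do not separate full-length NTRK2 and NTRK3 from their truncated, kinase-lacking forms.

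**Figure D1:**
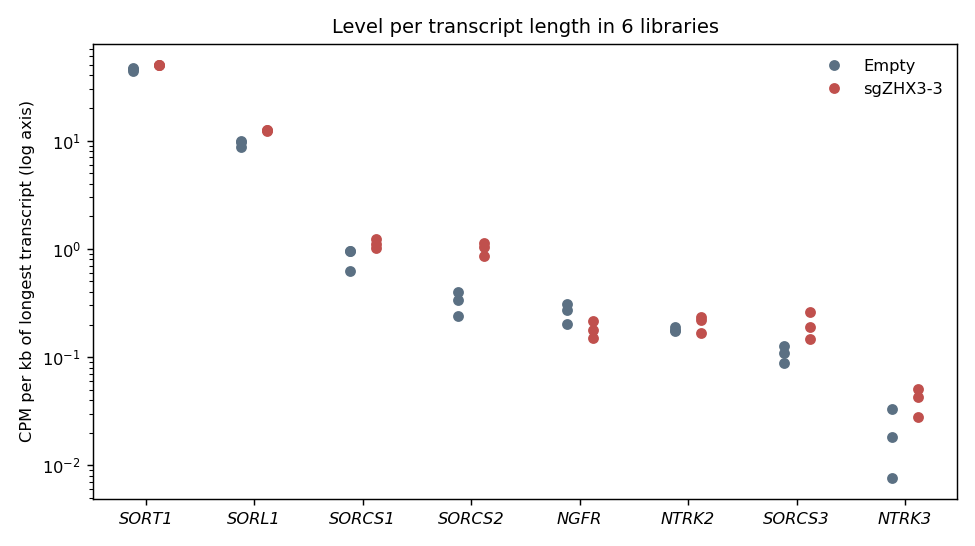
Level of each gene in CPM per kb of its longest coding transcript (log axis) in the 3 Empty and 3 sgZHX3-3 libraries, 1 point a library. SORT1 and SORL1 lie apart at the top, with medians of 48.4 and 11.0 CPM per kb, and NTRK3 is lowest at 0.0306.

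Of the 8 genes, which all passed the filter on low counts, 3 were called higher in the sgZHX3-3 libraries and 0 lower by edgeR (adjusted p below 0.05 over all 16199 tested genes), beside 7.11% called higher and 4.98% called lower among all tested genes. At an unadjusted p below 0.05 the counts were 6 and 0, beside 14.5% and 13.6% of all tested genes. DESeq2 called 4 and 0, beside 8.73% and 6.36% of the genes to which it gave an adjusted p, and limma-voom 3 and 0, beside 7.19% and 5.10%. The groups did not overlap, with sgZHX3-3 on the higher side, for 5 of the 8, as they did for 16.0% of all tested genes. Those 5 were the VPS10 receptors, and the neurotrophin receptors overlapped between the groups. The median log2 fold change was 0.39 over the 8 genes and −0.0020 over all tested genes. NTRK3 passed the filter, which asks for any 3 libraries at its limit of 0.202 CPM, through 2 Empty and 3 sgZHX3-3 libraries. The Empty libraries alone would not have sufficed. In bulk RNA fewer cells of a kind and less RNA per cell cannot be told apart.

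SORCS2, a receptor that binds precursor neurotrophins and partners NGFR, showed the largest difference of the 8. Replicates 1, 2 and 3 held 115, 122 and 72 counts among the Empty libraries. The sgZHX3-3 replicates, in the same order as all values below, held 237, 322 and 420. In CPM these were 2.46, 2.06 and 1.47 against 5.30, 6.46 and 6.97. Every sgZHX3-3 library stood above every Empty library, with Empty 3 lowest and sgZHX3-3 library 3 highest. The means were 2.00 ± 0.499 CPM (SD, n = 3) and 6.24 ± 0.854 CPM (SD, n = 3). The log2 fold change was 1.65 ± 0.173 (SE), or 3.14-fold, and ranked 9 from the top among all tested genes. The value stayed between 1.35 and 1.82 over 15 alternative settings and was called in each. The lowest came with both Empty 2 and Empty 3 removed, a setting chosen because earlier work on these data had found them apart from Empty 1. In that setting Empty 1 alone stands for its group, and its spread is borrowed from the sgZHX3-3 libraries. SORCS2 (ENSG00000184985.16) spans 550 kb on chromosome 4, from 7192538 to 7742836 on the plus strand of GRCh38. Its span holds PSAPL1 on the minus strand, which had at most 3 counts in any library, and the miRNA genes MIR4798 and MIR4274, each with 0 counts. The library kit marks strand, but the sources used here do not say how strand was set in counting.

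SORCS3, the least abundant VPS10 receptor and a close relative of SORCS1, was called higher on few reads. The Empty libraries held 34, 37 and 25 counts and the sgZHX3-3 libraries 38, 55 and 90. In CPM they were 0.727, 0.625 and 0.509 against 0.850, 1.10 and 1.49, so the groups lay apart by a small gap between Empty 1 and sgZHX3-3 library 1. The log2 fold change was 0.91 ± 0.261 (SE). It kept its sign but was not called when Empty 2 (0.91), Empty 3 (0.79) or library 2 (0.94) or 3 (0.66) of sgZHX3-3 was dropped, with Empty 2 and 3 both left out (0.68), or once a trend with gene span was removed (0.69). SORCS3 (ENSG00000156395.12) spans 624 kb of chromosome 10, from 104641101 to 105265235 on the plus strand. Its antisense gene SORCS3-AS1 had 1 count in sgZHX3-3 library 2 and 0 elsewhere.

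SORCS1, the other family member on chromosome 10 (ENSG00000108018.15, 106573663 to 107164534 on the minus strand), lay higher in sgZHX3-3 without being called. It stood at 6.93, 6.996 and 4.58 CPM in Empty and 8.03, 7.36 and 8.88 CPM in sgZHX3-3. The groups did not overlap, and Empty 3 stood well below the other Empty libraries. Its log2 fold change was 0.39 ± 0.147 (SE). It was called when Empty 1 was left out (0.48), was 0.22 without Empty 3, and was 0.18 once the trend with span was removed.

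SORL1, which returns the amyloid precursor protein and other cargo to the Golgi through retromer, was called higher with a small and even difference. It was at 107, 106 and 95.5 CPM in Empty and at 136, 134 and 136 CPM in sgZHX3-3, with no overlap. The means were 103 ± 6.38 CPM (SD, n = 3) and 135 ± 1.22 CPM (SD, n = 3). The log2 fold change was 0.39 ± 0.0570 (SE). It was called in 14 of 15 alternatives, at values from 0.34 to 0.43, and not with Empty 2 and 3 both left out (0.33). SORL1 (ENSG00000137642.12) spans 181 kb of chromosome 11, from 121452203 to 121633693 on the plus strand.

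SORT1, which sorts lysosomal proteins and binds neurotensin and progranulin, differed least among the VPS10 receptors. It was at 328, 319 and 306 CPM in Empty and at 352, 353 and 352 CPM in sgZHX3-3. The groups did not overlap, but the difference, a log2 fold change of 0.15 ± 0.0487 (SE), was not called by edgeR. It was called by DESeq2 (0.15) and without Empty 1 (0.18). SORT1 (ENSG00000134243.11) covers 109309568 to 109397951 on chromosome 1, minus strand. Summed per kb, the 5 VPS10 receptors came to 58.0, 56.6 and 53.3 CPM per kb in Empty and 64.7, 64.8 and 65.1 CPM per kb in sgZHX3-3. Within that sum SORT1 made up 80.4% to 81.8% in Empty and 76.9% to 77.6% in sgZHX3-3, SORL1 16.4% to 17.1% and 18.9% to 19.2%, and SORCS2 0.448% to 0.689% and 1.33% to 1.74%. Of the 3 Empty libraries, Empty 3 was lowest in CPM for each of the 5 VPS10 genes.

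**Figure D2:**
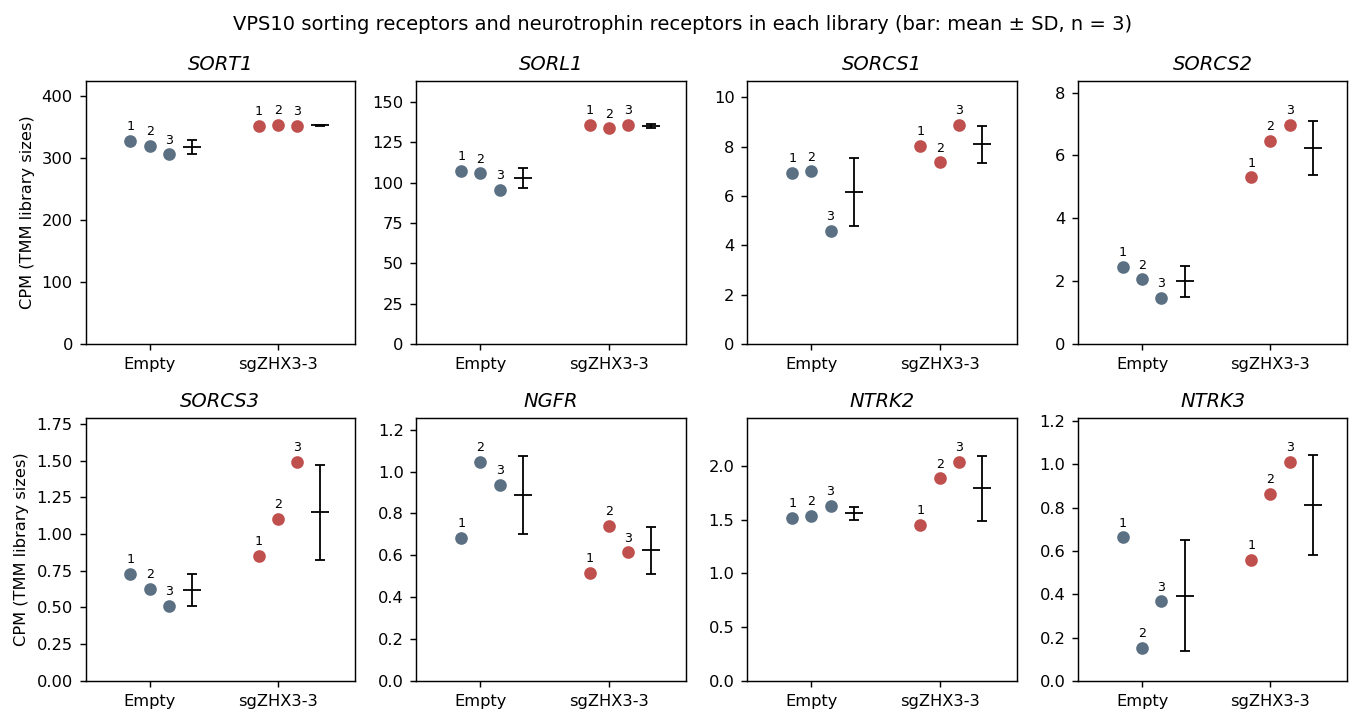
CPM of each gene in each library (points, numbered by replicate) for Empty and sgZHX3-3, with the mean and SD of each group beside them; axes start at 0 and differ between panels. The 5 VPS10 receptors show no overlap between the groups, from SORCS2 at 2.00 against 6.24 CPM to SORT1 at 318 against 353 CPM, while NGFR, NTRK2 and NTRK3 overlap.

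The neurotrophin receptors had between 9 and 123 counts in a library and none was called. NGFR, which lacks a kinase and signals with partner receptors, had counts of 32, 62 and 46 in Empty and 23, 37 and 37 in sgZHX3-3, or 0.684, 1.05 and 0.937 CPM against 0.515, 0.742 and 0.614 CPM. Empty 1 lay within the range of the sgZHX3-3 libraries. The log2 fold change was −0.52 ± 0.256 (SE), the only value below 0 among the 8 genes, and was −0.13 with Empty 2 and 3 both left out. NGFR (ENSG00000064300.8) lies on the plus strand of chromosome 17 from 49495293 to 49515017 and spans 19.7 kb, the shortest of the set.

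NTRK2, the BDNF receptor kinase, had counts of 71, 91 and 80 in Empty and 65, 94 and 123 in sgZHX3-3. At 1.52, 1.54 and 1.63 CPM against 1.45, 1.88 and 2.04 CPM the groups overlapped, since sgZHX3-3 library 1 was the lowest of all. Its log2 fold change was 0.21 ± 0.178 (SE), and 0.07 once the trend with span was removed. It was 0.10 without sgZHX3-3 library 3 and 0.33 without sgZHX3-3 library 1. NTRK2 (ENSG00000148053.15) spans 359 kb of chromosome 9 from 84668551 to 85027070 on the plus strand.

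NTRK3, the neurotrophin 3 receptor kinase, had a large fold change with a large error. Its counts were 31, 9 and 18 in Empty and 25, 43 and 61 in sgZHX3-3, or 0.663, 0.152 and 0.367 CPM against 0.559, 0.862 and 1.01 CPM. Empty 1 stood above sgZHX3-3 library 1, so the groups overlapped. By exact Poisson intervals at 95%, which cover counting error only, the 9 counts of Empty 2 allow 4.12 to 17.1 and the 31 of Empty 1 allow 21.1 to 44.0, so these Empty libraries differed by more than counting error. The log2 fold change was 1.11 ± 0.407 (SE). It became 1.70 and was called without Empty 1, was 0.68 without Empty 2, and was 0.31 with Empty 2 and 3 both left out. NTRK3 (ENSG00000140538.16) spans 397 kb of chromosome 15 from 87859751 to 88256768 on the minus strand, and its antisense gene NTRK3-AS1 had 0 counts.

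**Figure D3:**
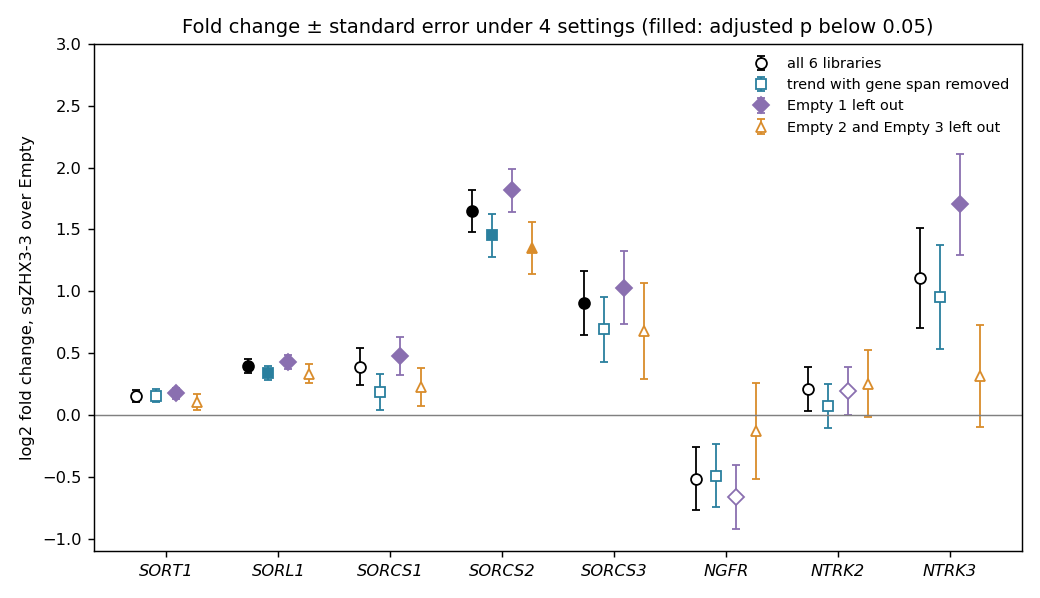
Log2 fold change of sgZHX3-3 over Empty with its standard error for each gene with all 6 libraries, after removal of a trend with gene span, without Empty 1, and without Empty 2 and 3; filled symbols were called at an adjusted p below 0.05. SORCS2 is filled in each setting, at 1.65, 1.45, 1.82 and 1.35, whereas NTRK3 moves from 1.11 to 1.70 and 0.31 as Empty libraries are left out.

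A property shared by 5 of the 8 genes is great length. SORCS1, SORCS2, SORCS3, NTRK2 and NTRK3 span over 300 kb, and among all 670 tested genes of that span 32.1% were called higher and 0.597% lower, with a median log2 fold change of 0.19. Among 7703 tested genes under 30 kb, the class of NGFR, 4.84% were called higher and the median was −0.0095. SORCS2 lay above the rest of its class: counting itself, only 0.149% of the genes over 300 kb, 1 gene, reached its value. The genes were selected on these fold changes, so this place is a description only. With the trend between span and difference removed, SORCS2 was at 1.45, NTRK3 at 0.95, SORCS3 at 0.69, SORL1 at 0.34, SORCS1 at 0.18, SORT1 at 0.16, NTRK2 at 0.07 and NGFR at −0.49. What underlies the trend with span was not tested.

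**Figure D4:**
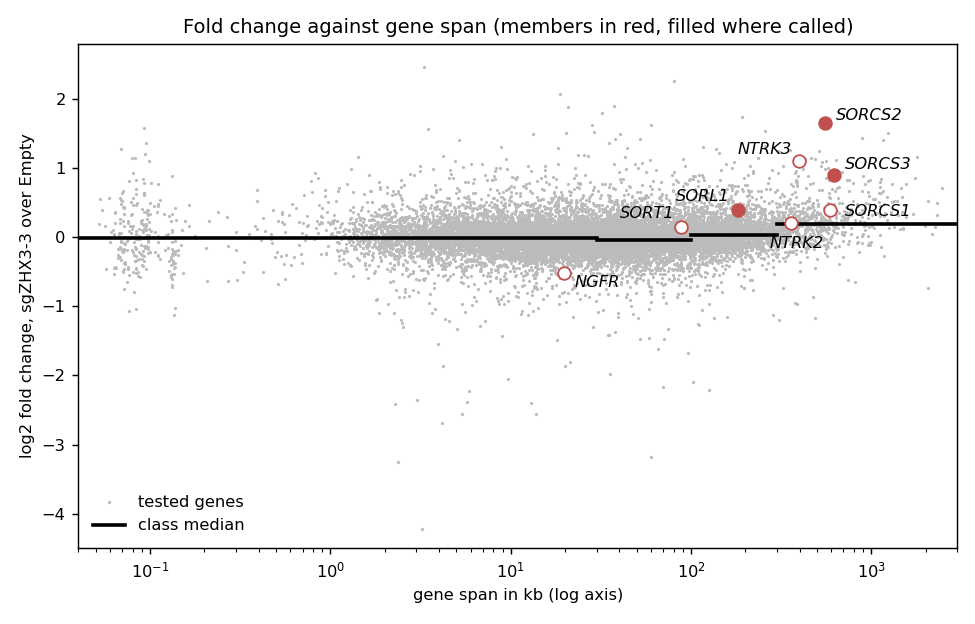
Log2 fold change of sgZHX3-3 over Empty against gene span in kb (log axis) for tested genes with an annotated span, with the 8 genes in red (filled where called) and black lines at the median of each span class. The median is 0.19 over 300 kb and −0.0095 under 30 kb, and SORCS2 at 1.65 is the highest point of the longest class.

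The profiles nearest to those of the called members over the 6 libraries were found by the root mean square difference of centred log2 CPM, a measure that includes the difference between the groups. For SORCS2 they were VSTM2B (0.157), the transcription factor SOX8 (0.166) and LOC100130417 (0.182), for SORCS3 WSCD2 (0.101), the tyrosine kinase FES (0.107) and C20orf166-AS1 (0.120), and for SORL1 TMEM132B (0.0271), the calcium channel CACNA1C (0.0285) and ENC1 (0.0289).

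Among ligands of the neurotrophin receptors, NTF4 had 2 to 11 counts in a library and NTF3 had 0 in every library, and neither passed the filter. BDNF, the ligand of NTRK2, passed it and was at 3.04, 2.65 and 2.36 CPM in Empty and 3.60, 3.63 and 3.12 CPM in sgZHX3-3. These groups did not overlap, by a narrow gap, and the log2 fold change of 0.36 did not pass (edgeR adjusted p = 0.118); it passed without Empty 1 (0.46, adjusted p = 0.0467).

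Among ligands and cargo of the VPS10 receptors, 4 of 8 tested genes were higher and 0 lower (edgeR; 6 and 0 at an unadjusted p below 0.05, 5 and 0 with DESeq2, 4 and 0 with limma-voom), with a list median of 0.22. Over all tested genes the share called higher was 7.11% by edgeR, 14.5% at an unadjusted p below 0.05, 8.73% with DESeq2 and 7.19% with limma-voom, here and for the lists that follow. GRN, which encodes the sortilin ligand progranulin, had means of 304 ± 27.5 CPM in Empty and 381 ± 19.1 CPM in sgZHX3-3 (SD, n = 3 each), a rise of 0.33 (edgeR adjusted p = 0.00754). Its call was lost without Empty 3 (0.30, adjusted p = 0.0523) and with Empty 2 and 3 both left out (0.19, 0.310). PSAP, the saposin precursor sorted by sortilin (0.27, adjusted p = 0.0321), APP, the amyloid precursor and SORL1 cargo (0.24, 0.0284), and the chaperone gene CLU (0.22, 0.0482) also passed. Leaving out Empty 1 kept these 3 calls, and leaving out any of the other libraries ended them (adjusted p 0.0525 to 0.160, 0.0642 to 0.147 and 0.0576 to 0.200). APP was also not called once the span trend was removed (0.13, adjusted p = 0.251), and CLU neither on library totals alone (0.0740) nor with a filter of 1 CPM in 3 libraries (0.0502). NTS, which encodes neurotensin, was at 0.447 and 0.451 CPM in the groups and did not pass (adjusted p = 0.977).

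Of the sorting machinery around these receptors 2 of 21 tested genes were higher and 0 lower, a share near that over all tested genes (7.11% and 4.98%) (edgeR; 3 and 1 at an unadjusted p below 0.05, 2 and 1 with DESeq2, 2 and 0 with limma-voom), and the median was 0.02. IGF2R, the mannose 6-phosphate receptor that carries lysosomal enzymes, stood at 482, 503 and 473 CPM in Empty and 641, 678 and 694 CPM in sgZHX3-3. All sgZHX3-3 libraries lay above all Empty libraries, and the rise of 0.47 ± 0.0519 (SE; edgeR adjusted p = 0.000203) was called in all 15 alternatives. The clathrin adaptor gene AP1B1 passed at 0.23 (0.0233), but not when Empty 2, Empty 3 or library 2 or 3 of sgZHX3-3 was dropped (adjusted p 0.0639 to 0.125). VPS35, the core subunit of retromer, was at 221 ± 9.39 CPM (SD, n = 3) and 210.4 ± 14.4 CPM (SD, n = 3) and did not pass (−0.07, adjusted p = 0.476).

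Of 12 tested convertases, sheddases and gamma-secretase genes 1 was higher and 0 lower (edgeR; 3 and 0 at an unadjusted p below 0.05, 1 and 0 with DESeq2 and with limma-voom), with a median of 0.09. That gene was FURIN, the convertase that removes propeptides of VPS10 receptors and neurotrophins, at 0.38 (edgeR adjusted p = 0.0244). It did not pass when Empty 2, Empty 3 or library 2 or 3 of sgZHX3-3 was dropped (adjusted p 0.0530 to 0.105).

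Of 21 tested partners and adaptors of NGFR and the Trk receptors 3 were higher and 1 lower (edgeR; 6 and 2 at an unadjusted p below 0.05, 4 and 1 with DESeq2, 3 and 1 with limma-voom), with a median of 0.04. LINGO1, a membrane partner of NGFR in the Nogo receptor complex, had means of 23.0 ± 3.22 CPM in Empty and 31.8 ± 1.70 CPM in sgZHX3-3 (SD, n = 3 each), a rise of 0.47 (edgeR adjusted p = 0.00604). It passed whichever single library was dropped, but not with Empty 2 and 3 removed together (0.25, 0.286). The Shc adaptor genes SHC3 (0.28, adjusted p = 0.0118) and SHC2 (0.25, 0.0340) were higher and the docking protein gene GAB1 (−0.29, 0.0478) lower. SHC3 lost its call without Empty 2 (0.0642) or Empty 3 (0.0698), SHC2 when Empty 2, Empty 3 or library 2 or 3 of sgZHX3-3 was dropped (0.111 to 0.157), and GAB1 on dropping any library but Empty 1 (0.0583 to 0.177). SHC2 also missed the threshold on library totals alone (0.0534) and GAB1 without an expression filter (0.0528). PLCG1, a Trk effector whose gene overlaps the 3′ part of ZHX3 on the other strand and whose count is uncertain for that reason, did not pass (0.17, adjusted p = 0.0581); it passed with DESeq2 (0.17, 0.0367), without sgZHX3-3 library 1 (0.21, 0.0348) and once the span trend was removed (0.20, 0.0455).

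The receptors of the GDNF family, another group of neuronal growth factor receptors, had 2 of 4 tested genes higher and 0 lower (edgeR; 3 and 0 at an unadjusted p below 0.05, 2 and 0 with DESeq2 and with limma-voom). GFRA3, the artemin coreceptor, was at 1.30, 1.23 and 1.02 CPM in Empty and 2.15, 2.09 and 2.21 CPM in sgZHX3-3, and rose by 0.86 ± 0.171 (SE; edgeR adjusted p = 0.00710). RET, the kinase shared by this family, rose by 0.44 (adjusted p = 0.00609), with means of 50.9 ± 6.81 CPM in Empty and 69.0 ± 4.41 CPM in sgZHX3-3 (SD, n = 3 each). Both passed whichever single library was dropped, and neither passed with Empty 2 and 3 removed together, at 0.72 (0.187) and 0.24 (0.271). Over all 6 lists 12 of 67 tested genes were higher and 1 lower, with a median of 0.07; of these 13, only IGF2R was still called with Empty 2 and 3 removed together.

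**Figure D5:**
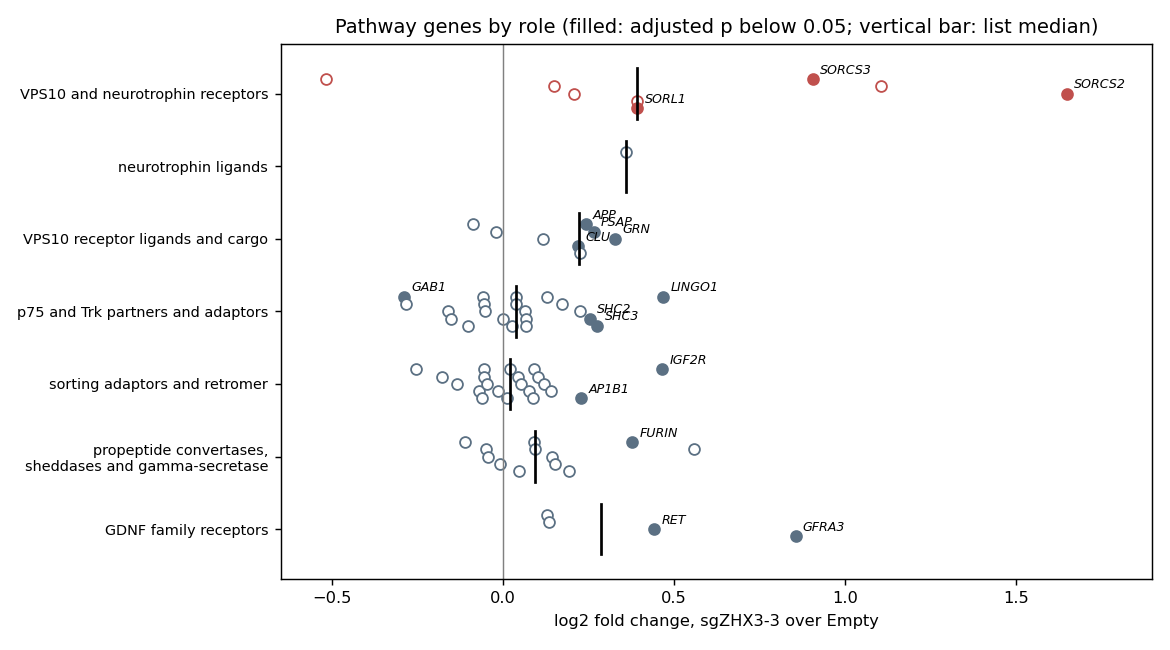
Log2 fold change of sgZHX3-3 over Empty for tested genes of each list (points, filled and named where called at an adjusted p below 0.05; vertical bars, list medians). IGF2R at 0.47, LINGO1 at 0.47, RET at 0.44 and GFRA3 at 0.86 stand at the upper end of their lists, below SORCS2 at 1.65.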

How the data were processed

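RNA was measured in 6 libraries of EndoC-βH1. The submitters' processing notes name STAR, featureCounts and hg38; the sources used here give no versions, gene models, strand setting or treatment of multi-mapping reads. The authors deposited raw counts for each symbol, without normalization, and columns were joined to samples by group and replicate letter. Genes were kept by filterByExpr (minimum count 10, minimum total 15), leaving 16199. Groups were compared with edgeR's robust quasi-likelihood test on TMM library sizes with Benjamini-Hochberg adjustment over all tested genes, called at 0.05; standard errors come from the fold change and F statistic. Of the table's symbols 93.0% matched GENCODE release 29 (GRCh38), used for positions, spans and lengths. The span trend was a loess fit per library, used as an offset. Profiles were compared among genes averaging 1 CPM or more.

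The 8 genes, the lists, the tests and the alternatives were chosen with earlier results of these data known. The text names all 8 genes, fixed ligands, receptors and sorting genes, up to 4 called genes per list, overlapping genes and the 3 nearest profiles of each called member. Some items of these lists are not reported here. The alternatives were RLE factors, library totals, 2 other filters, DESeq2, limma-voom, a replicate block, libraries left out and the span offset. The procedure was tested on simulated counts with known changes. It recovered 40% of 1.25-fold changes, 83.7% of 1.5-fold changes and 87.6% of 2-fold changes, and 11 of its 157 calls were false. Small differences can therefore be missed, and a gene not called is not shown to be unchanged. The simulation changed 50, 49 and 97 of 16091 genes at these folds, fewer than the 1958 called in the data. Its shares need not hold here, and they pool all expression levels, so they do not describe genes with few counts. DESeq2 1.42.0, edgeR 4.0.16 and limma 3.58.1 were run in R 4.3.3, and figures and sequences were handled in Python 3.11.15 with matplotlib 3.10.9.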

Additional observations from a re-analysis of the deposited data

How the results depend on the processing

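No member changed sign in any of its alternatives: of 117 values 105 kept direction and call, 8 kept direction and lost the call (7 of SORCS3 and 1 of SORL1) and 4 gained it. Members called higher numbered 3 with all libraries, 2 to 6 with 1 library left out, and 1 on removing Empty 2 and 3 together; 0 were lower in each. Among all tested genes 1151 genes were higher and 807 lower; with 1 library left out the counts ran from 474 to 1792 and from 184 to 1499, and with Empty 2 and 3 left out they were 209 and 40. With library totals alone 904 were higher and 1272 lower, so the share of higher calls fell from 58.8% to 41.5%. Of the pathway genes 12 were higher and 1 lower; with 1 library left out the counts ran from 4 to 16 and from 0 to 4, and with Empty 2 and 3 left out they were 1 and 0. The lower count was 2 with library totals or DESeq2 and 0 without an expression filter. Between same-numbered libraries of the 2 groups, deviations from the group means correlated at −0.138, 0.0685 and −0.142. Between libraries of different numbers they correlated at −0.149 to 0.233. Deviations from a mean of 3 libraries constrain each other, so these values cannot decide whether same-numbered libraries share a batch. With the replicate block 516 genes were higher and 239 lower, 2 members and 5 pathway genes were higher, and 0 of either were lower; SORCS3 was then not called (0.88). Of the named genes not called, 3 changed sign: NTS, at −0.02, ran from −0.16 to 0.20 with 1 library left out and was 0.29 with Empty 2 and 3 left out. In that last setting VPS35, at −0.07, was 0.00034 and INS, at 0.19, was −0.014. The cause of these differences between settings was not tested. The depth of these libraries leaves NTRK3, NGFR and SORCS3 below 100 counts each in every library, and a filter of 1 CPM in 3 libraries removed all of these 3.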

Other observations

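The spread between libraries differed between the groups in both directions. The coefficient of variation was smaller over the 3 sgZHX3-3 libraries than over the 3 Empty libraries for 6 of the 8 genes: SORT1 (0.243% against 3.49%), SORL1 (0.904% against 6.20%), SORCS1 (9.42% against 22.3%), SORCS2 (13.7% against 25.02%), NTRK3 (28.4% against 65.1%) and NGFR (18.3% against 21.0%). It was larger for NTRK2 (16.9% against 3.81%) and SORCS3 (28.2% against 17.5%). Counting alone gives 0.741% for SORT1 and 1.198% for SORL1 in the sgZHX3-3 libraries. In the Empty libraries it gives 11.1% for NTRK2 and 17.68% for SORCS3, whose spread there was 17.55%. All of those spreads lay below the counting error. For NGFR in the sgZHX3-3 libraries counting gives 17.6%, close to the spread of 18.3%. With 3 libraries a group these spreads are themselves uncertain, and the difference between them was not tested.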
